A study of Mus musculus with 2 samples.

Results

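Proteasome and antigen presentation genes were compared between primary mouse osteoblasts held in medium conditioned by PC-3 cells and osteoblasts held in medium conditioned by MDA-PCa2b cells. The genes were taken from a fixed list of 44 symbols: the subunits of the 20S core, the 19S cap and the proteasome activators, the peptide transporter and loading genes Tap1, Tap2 and Tapbp, the light chain gene B2m and the transactivator gene Nlrc5. A gene entered with every probe set that the platform annotation assigned to its symbol alone. Of 44 genes 43 had such a probe set, out of 18193 genes on the array, and they had 92 probe sets out of 45101. The exception was Psme2, which had no probe set of its own and is therefore without a value here.

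The study asked which transcripts of osteoblasts respond to factors from prostate cancer cells of different origin. Both groups were primary osteoblasts at day 10 of differentiation in 50 µg/ml ascorbic acid with 10 mM beta-glycerophosphate and 10% fetal calf serum. Both were starved of serum overnight, and the groups differed in the conditioned medium given for 6 hours. PC-3 and MDA-PCa2b are established human prostate cancer lines, and each group was 1 Affymetrix array, so no group had a spread between cultures and the media could not be compared by a test. Osteoblasts in plain medium were not analysed here. "Higher" and "lower" therefore always describe the array with PC-3 medium set against the other. The strain, the bone of origin and the number of animals are not given in the labels.

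The proteasome degrades proteins marked with ubiquitin. Its 20S core is a barrel of alpha and beta rings, in which the beta subunits Psmb5, Psmb6 and Psmb7 cut peptide bonds, and the 19S cap recognises, unfolds and feeds in the substrate. Interferons and other inflammatory signals are known to induce alternative catalytic subunits, Psmb8, Psmb9 and Psmb10, which replace the constitutive ones in newly built immunoproteasomes, and the PA28 activator made of Psme1 and Psme2. The peptides are carried into the endoplasmic reticulum by Tap1 and Tap2 and loaded, with the help of Tapbp, onto MHC class I molecules that contain B2m; Nlrc5 is a transactivator of MHC class I genes.

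Promoter sequences of 36 of the 44 genes were available from RefSeq (build GRCm38.p6, from 250 bases before to 50 bases after the annotated start). Those of Psmb8 and Psmb10 are shown because these genes had the largest ratios among those measured in both media, that of Psmb9 because it is shared with Tap1, that of Psme1 as the measured gene of PA28, and that of B2m as a presentation gene with nearly equal signals. Letters in capitals match 1 of 3 motifs: the IRF element AANNGAAA, the GAS element TTCNNNGAA that binds STAT dimers, and the NF-kB consensus, each searched on both strands. Each sequence is given from 5′ to 3′ on the strand of its gene.
Psmb8, chr17:34197945-34198244, + strand: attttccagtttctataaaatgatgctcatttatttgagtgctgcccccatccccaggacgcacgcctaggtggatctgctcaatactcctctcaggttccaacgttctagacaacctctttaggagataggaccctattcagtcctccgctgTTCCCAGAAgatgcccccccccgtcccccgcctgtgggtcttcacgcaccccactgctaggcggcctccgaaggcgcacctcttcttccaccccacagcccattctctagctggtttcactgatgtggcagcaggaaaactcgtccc
Psmb10, chr8:105938343-105938642, - strand: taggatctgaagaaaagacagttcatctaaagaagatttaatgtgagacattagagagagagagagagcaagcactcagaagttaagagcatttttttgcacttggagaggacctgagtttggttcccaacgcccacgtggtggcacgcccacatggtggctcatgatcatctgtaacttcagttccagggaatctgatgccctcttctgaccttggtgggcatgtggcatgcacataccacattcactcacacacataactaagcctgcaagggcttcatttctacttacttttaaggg
Psmb9, chr17:34187281-34187580, - strand: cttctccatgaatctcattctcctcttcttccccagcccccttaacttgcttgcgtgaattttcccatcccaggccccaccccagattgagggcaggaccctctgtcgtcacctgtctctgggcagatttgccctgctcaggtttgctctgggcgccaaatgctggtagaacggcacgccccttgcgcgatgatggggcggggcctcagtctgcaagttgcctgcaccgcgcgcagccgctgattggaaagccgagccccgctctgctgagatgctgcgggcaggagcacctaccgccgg
Psme1, chr14:55578244-55578543, + strand: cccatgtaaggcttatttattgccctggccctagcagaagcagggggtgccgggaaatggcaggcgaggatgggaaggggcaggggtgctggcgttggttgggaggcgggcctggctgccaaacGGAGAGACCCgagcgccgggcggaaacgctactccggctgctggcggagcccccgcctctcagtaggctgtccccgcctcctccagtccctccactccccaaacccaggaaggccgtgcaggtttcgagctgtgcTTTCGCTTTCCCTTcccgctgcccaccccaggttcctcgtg
B2m, chr2:122147437-122147736, + strand: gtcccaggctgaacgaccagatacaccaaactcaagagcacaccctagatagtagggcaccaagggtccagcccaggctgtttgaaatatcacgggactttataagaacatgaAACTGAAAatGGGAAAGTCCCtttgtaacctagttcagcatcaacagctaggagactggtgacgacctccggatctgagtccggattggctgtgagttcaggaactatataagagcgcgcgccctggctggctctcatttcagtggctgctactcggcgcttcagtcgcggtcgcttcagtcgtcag

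Psmb8 had 1 GAS match, whose first base was at position -97 relative to the start, and no match to the other motifs. The windows of Psmb10 and Psmb9 held no match to any of the 3 motifs. Psme1 held a pair of overlapping IRF matches at positions 10 and 16, just downstream of the start, and an NF-kB match at -126. B2m held an IRF match at -137 beside overlapping NF-kB matches at -127 and -126. Such a match is a string of letters and not a measured site, and a window without one says nothing of elements elsewhere. Psmb9 and Tap1 run in opposite directions on chromosome 17 from starts 226 bases apart, so that 275 bases of their windows are the same DNA. In the order of protein-coding genes Psmb9, Tap1, Psmb8 and Tap2 followed each other directly, inside the MHC region.

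Among the listed genes measured in both media, the inducible subunit genes Psmb8 and Psmb10 had the largest ratios. The signal of Psmb8, the inducible subunit of the chymotrypsin-like site, was 322 on the MDA-PCa2b medium array and 912 on the array of PC-3 medium, which is 2.83-fold higher. Psmb10, the inducible subunit of the trypsin-like site, gave 503 and 996, 1.98-fold higher (log2 ratio 0.99). Psmb9, that of the caspase-like site, gave 155 and 196, only 1.26-fold higher (log2 ratio 0.33). The PA28 gene Psme1 gave 1587 and 2104, 1.33-fold higher (log2 ratio 0.41). All 4 measured genes of this class were thus higher with PC-3 medium, where 44.1% of all 10649 genes measured on both arrays were higher. The amounts ranged from 1.26-fold to 2.83-fold.

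With no replicate arrays, the measure of error was the scatter of log2 ratios among probe sets of the same gene, which had an SD of 0.24 over 4924 genes. It was 0.31 in the lowest tertile of signals, 0.21 in the middle tertile and 0.14 in the highest tertile. The log2 ratio of Psmb8 was 7.07 times the SD of its tertile, and that of Psmb10 was also 7.07 times its own. Psme1 stood at 2.92 times and Psmb9 at 1.08 times, so the Psmb9 difference was about the size of that scatter. By the overall SD, Psmb8 stood at 6.18 times and Psmb10 at 4.06 times. Psmb10 fell in the highest tertile, which began at a signal of 650, and Psmb8 in the middle one. The scatter between probe sets belongs to a single pair of arrays and leaves out the spread between cultures. Each of these 4 genes was measured by 1 probe set. The second probe set of Psmb8 was in both media below the floor, which is the median signal of an array and under which no signal was read.

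**Figure D1:**
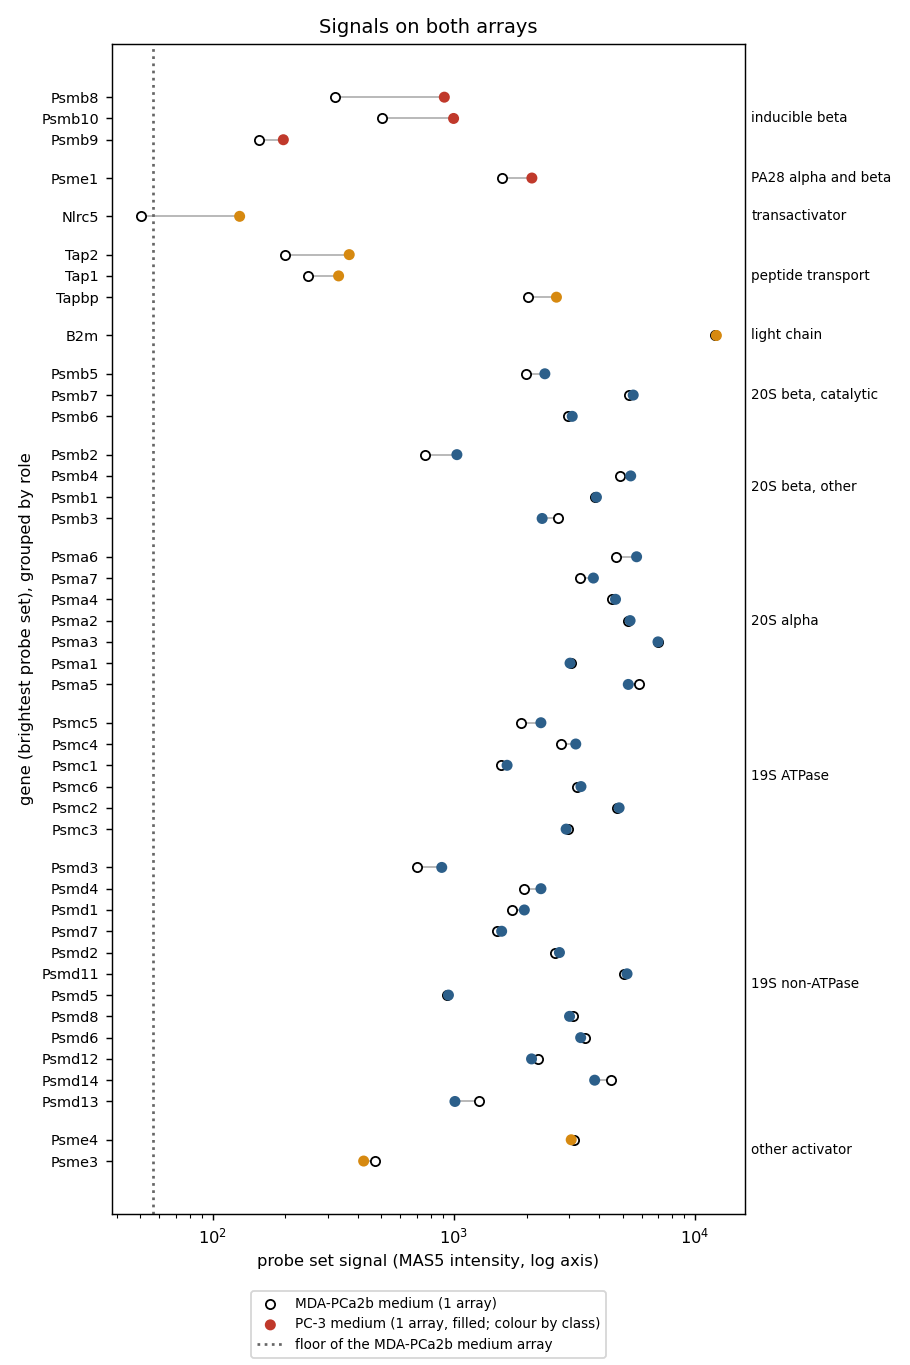
Signal of the brightest probe set of each of 43 genes (log axis, MAS5 intensity) with MDA-PCa2b medium (open circles) and PC-3 medium (filled circles), 1 array each, grouped by role; the dotted line is the floor of the MDA-PCa2b array, 56.7. The circles lie far apart for Psmb8, Psmb10, Tap2 and Nlrc5 and nearly coincide for most 20S and 19S genes and for B2m.

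The constitutive counterparts of these subunits differed little. Psmb5, the chymotrypsin-like subunit that Psmb8 replaces, gave signals of 1993 and 2381 (log2 ratio 0.26). Psmb6, the caspase-like subunit, gave 2964 and 3093 (log2 ratio 0.06), and Psmb7, the trypsin-like subunit, gave 5298 and 5537 (log2 ratio 0.06). Set against its counterpart, the log2 ratio was 1.24 greater for Psmb8 than for Psmb5 and 0.92 greater for Psmb10 than for Psmb7. For Psmb9 against Psmb6 the difference was 0.27, or 1.13 times the overall scatter between probe sets. Only ratios are compared here, since signals of different probe sets are not on a common scale.

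The other beta subunits, which build the ring without a catalytic site, went both ways within a narrow range. Psmb2 had the highest ratio of all constitutive genes, with signals of 756 and 1028 (log2 ratio 0.44, 3.18 times the scatter at its signal). Psmb3 had the lowest ratio of the beta genes, at 2705 and 2320 (log2 ratio -0.22, with -0.13 by its second probe set). Between them lay Psmb4, with a log2 ratio of 0.15, and Psmb1, with 0.02 by the brightest probe set and -0.22 by another.

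The 7 alpha subunit genes, which form the outer rings and the gate of the core, had a median log2 ratio of 0.03. Psma6 had the highest ratio, with signals of 4681 and 5719 (log2 ratio 0.29; 0.03 and 0.21 by its other measured probe sets). Psma5 had the lowest ratio by its brightest probe set, at 5852 and 5283 (log2 ratio -0.15), but its second probe set gave 0.19, so its direction was not settled. The ratios of Psma1, Psma2, Psma3 and Psma4 by their brightest probe sets all lay between -0.01 and 0.05, and that of Psma7 was 0.18. A dim second probe set of Psma3, with signals of 84.3 and 117.6, gave 0.48.

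The 19S cap showed the same narrow spread. Its 6 ATPase genes, whose products unfold substrates, had a median log2 ratio of 0.07. Among them Psmc5 had the highest ratio, with signals of 1901 and 2293 (log2 ratio 0.27), and Psmc3 the lowest, with 2959 and 2918 (log2 ratio -0.02, and 0.02 once the median of all genes was set to 0). The others were Psmc4 (0.20), Psmc1 (0.08), Psmc6 (0.05) and Psmc2 (0.02), of which Psmc4 and Psmc6 had further probe sets on the other side of 0 (-0.05 for Psmc4; -0.15 and -0.20 for Psmc6).

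The 12 non-ATPase genes of the cap had a median log2 ratio of 0.03. Psmd3, a scaffold subunit of the lid, had the highest ratio, with signals of 703 and 890 (log2 ratio 0.34). Psmd13, another lid subunit, had the lowest, with 1268 and 1009 (log2 ratio -0.33). Its other measured probe sets disagreed, one at 714 and 455 with a log2 ratio of -0.65 and one near the floor with 0.04. Psmd14, the deubiquitinase that removes ubiquitin chains from substrates, gave 4494 and 3832 (log2 ratio -0.23), and the ubiquitin receptor gene Psmd4 gave 1955 and 2294 (log2 ratio 0.23, and 0.21 by its second probe set). Of the remaining genes Psmd1 was at 0.17, and Psmd2, Psmd5, Psmd6, Psmd7, Psmd8, Psmd11 and Psmd12 lay between -0.08 and 0.06 by their brightest probe sets. For Psmd11 the brightest gave 0.05 and 4 others ranged from -0.24 to 0.15.

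In all, the 32 constitutive 20S and 19S genes had a median log2 ratio of 0.05 (SD over genes 0.17), against -0.04 over all measured genes. By the brightest probe set none was at least 1.5-fold higher, against a background of 5.18% of all measured genes. None was at least 1.5-fold lower, against 6.23%. For 29 of 32 the larger signal exceeded the smaller by less than 25%, the exceptions being Psmb2, Psmd3 and Psmd13. Among the 3541 genes on the array at least as bright as the dimmest of them, 79.9% lay within that margin, against 90.6% of the constitutive genes. Of these bright genes 92.5% differed by less than 1.5-fold, against all 32 constitutive genes. A log2 ratio above 0 was found for 22 of 32, beside the 44.1% of all measured genes. The median of the 4 inducible genes was 0.70, which is 0.64 above the constitutive median, or 1.56-fold. The classes overlapped: only Psmb8 and Psmb10 lay above every constitutive gene. The constitutive gene Psmb2 (0.44) lay above Psme1 (0.41) and Psmb9 (0.33), and Psmd3 (0.34) lay above Psmb9.

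**Figure D2:**
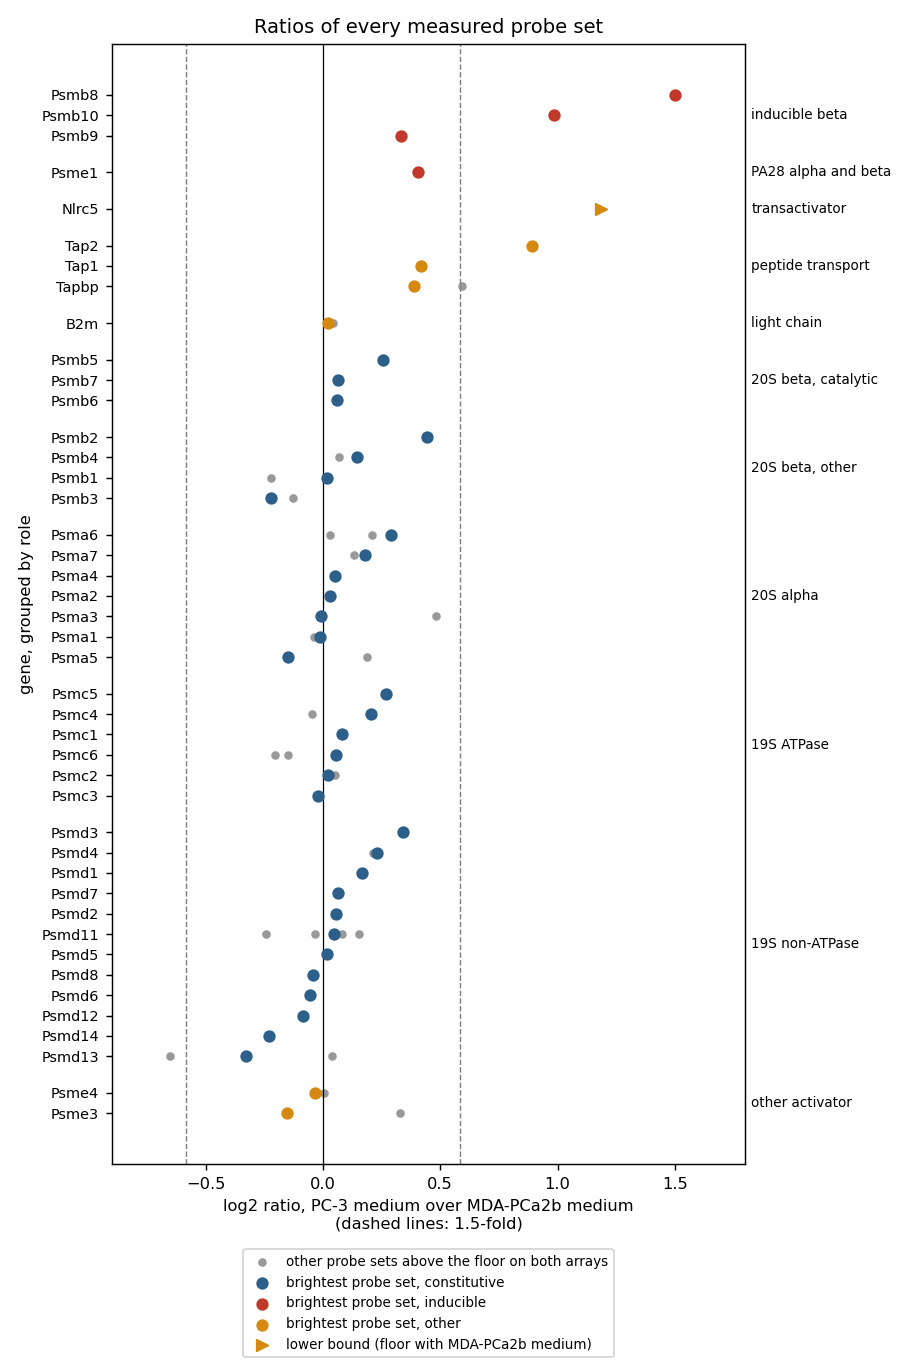
Log2 ratio of PC-3 medium over MDA-PCa2b medium for every probe set above the floor on both arrays, by gene and role; large circles are the brightest probe set of a gene, small grey circles its other probe sets, the triangle the lower bound for Nlrc5, and dashed lines mark 1.5-fold. Psmb8, Psmb10 and Tap2 lie beyond the right dashed line, and all large circles of the constitutive genes lie between the dashed lines.

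The remaining activators of the core gave no clear direction. Psme3, the nuclear PA28 gamma gene, gave 469 and 422 by its brightest probe set (log2 ratio -0.15) and 287 and 361 by another (0.33), on opposite sides of 0. Psme4, which encodes the PA200 activator, gave 3139 and 3063 (log2 ratio -0.04), with -0.03 and 0.00 by further probe sets, and 0.0038 by the brightest once the median of all genes was set to 0, so it has no direction either.

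The genes of peptide transport and loading were higher with PC-3 medium, by differing amounts. Tap2, which forms the transporter with Tap1, gave signals of 198 and 368, 1.85-fold higher (log2 ratio 0.89, 4.19 times the scatter at its signal). Tap1 itself gave 249 and 332, 1.33-fold higher (log2 ratio 0.42, 1.96 times the scatter). Of the 4 probe sets of Tap1 only this one was above the floor. Tapbp, the tapasin gene, gave 2035 and 2660, 1.31-fold higher (log2 ratio 0.39), and its second probe set gave 0.59. The light chain gene B2m gave 12055 and 12251 (log2 ratio 0.02, and 0.04 by its second probe set), so it did not share the ratios of the transporter genes.

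Nlrc5 passed the floor in PC-3 medium and not in MDA-PCa2b medium. Its signal was 50.2 with MDA-PCa2b medium, below the floor of 56.7, and 129 with PC-3 medium, so that it was at least 2.28-fold higher, computed against the floor. This bound rests on 1 dim probe set.

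Across the list, 42 genes were measured in both media, and 3 of them, Psmb8, Psmb10 and Tap2, were at least 1.5-fold higher. That share is near the background of 5.18%, and the count is therefore no result about the list as a whole. No listed gene was at least 1.5-fold lower, beside a background of 6.23%. Psmb8 was the only gene at least 2-fold higher (background 1.90%), with Psmb10 just short of it, and none was at least 2-fold lower (background 1.68%). Counted from the highest ratio of the 10649 genes, Psmb8 ranked 90, Psmb10 209, Tap2 255, Tap1 998, Psme1 1033 and Psmb9 1322. Without probe sets that can match several transcripts, the count at least 1.5-fold higher was 1, because Psmb8 and Tap2 were then not measured.

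**Figure D3:**
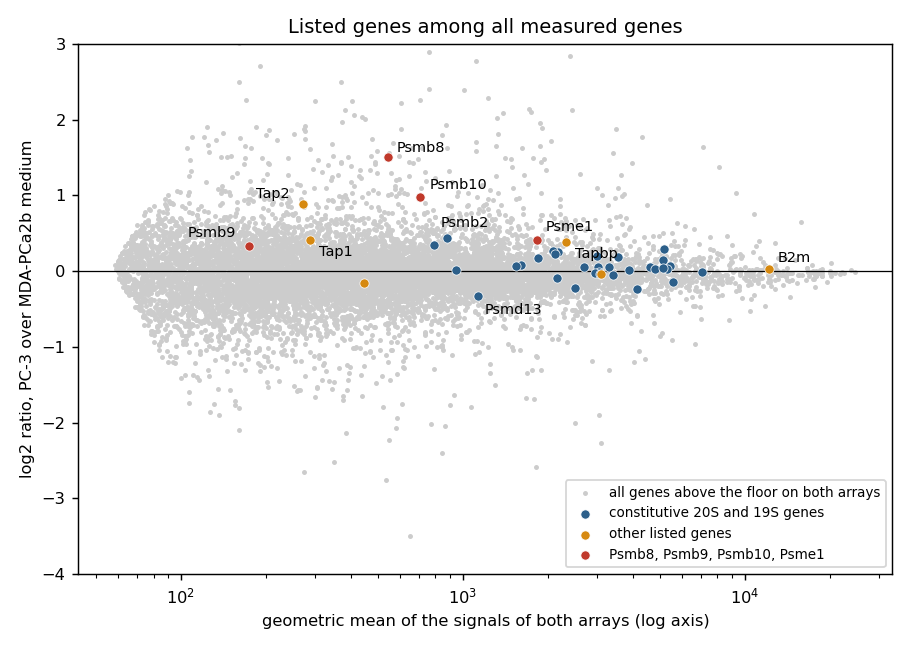
Log2 ratio of PC-3 medium over MDA-PCa2b medium against the geometric mean of both signals (log axis) for all 10649 genes above the floor on both arrays (grey) and the listed genes (coloured by class); 14 genes lie outside the frame. The blue constitutive genes lie along 0 at high signals, and Psmb8, Psmb10 and Tap2 lie above most genes of like signal.

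Genes known to drive the inducible subunits and MHC class I were examined as a list of 27 factors and receptors, of which 25 were above the floor on both arrays. Of these, 6 had ratios of at least 1.5-fold upward (background 5.18%) and none downward (background 6.23%), with a median log2 ratio of 0.24. Relb, a subunit of the alternative NF-kB pathway, gave 142 and 524 (log2 ratio 1.88), and its partner Nfkb2 gave 191 and 393 (log2 ratio 1.04, and 1.69 by its second probe set). Stat2, part of the type I interferon complex, gave 164 and 320 (log2 ratio 0.97). The interferon gamma receptor gene Ifngr2 gave 223 and 411 (log2 ratio 0.88, and 0.35 by its second probe set). Irf1, a known activator of Psmb9 and Tap1 that was picked after its values were seen, gave 654 and 1204 (log2 ratio 0.88).

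Further genes of class I presentation differed less evenly. Of 12 measured genes for peptide trimming and loading 2 were at least 1.5-fold higher (background 5.18%) and none lower (background 6.23%), with a median of 0.01. These were Tapbpl, a tapasin relative that edits peptides (119 and 210, log2 ratio 0.82), and Erap1, the aminopeptidase that trims peptides in the endoplasmic reticulum (329 and 497, log2 ratio 0.60, and 0.71 by its second probe set). The MHC class I heavy chain list had 6 measured genes with a median of 0.34, and 1 at least 1.5-fold higher, beside the same background: Mr1, which presents vitamin metabolites (270 and 431, log2 ratio 0.68, and 0.28 by its second probe set). The classical chain genes H2-K1 and H2-D1, named after their values were seen, had log2 ratios of 0.40 and 0.21. Further probe sets gave 0.03 to 0.48 for H2-K1 and 0.18 to 1.45 for H2-D1. These genes are related in sequence, so some probe sets may not tell them apart.

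The MHC class II list, which presents extracellular antigen and is normally a property of immune cells, had 6 of 12 genes above the floor on both arrays, with a median of 0.33. H2-Aa (65.6 and 119, log2 ratio 0.86) and the invariant chain gene Cd74 (81.5 and 127, log2 ratio 0.63) were at least 1.5-fold higher, beside a background of 5.18%, both at low signals. Of the 4 probe sets of H2-Aa no other was above the floor on both arrays. The class II transactivator gene Ciita was below the floor in both media.

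Lists of genes that serve the constitutive proteasome had medians near 0, apart from the list around its regulator Nfe2l1. At least 1.5-fold differences had a background of 5.18% higher and 6.23% lower. Of 8 measured assembly genes none differed 1.5-fold (median -0.02); Psmd10, an assembly chaperone, was the largest, with 622 and 880 (log2 ratio 0.50), and Psmg1, another, gave -0.23. Of 7 measured genes for proteasome-bound proteins none differed 1.5-fold (median -0.01), with Sem1, a small lid subunit, at -0.28 and the scaffold gene Ecpas at 0.21 (-0.29 to 0.02 by its other probe sets). The ubiquitin list had 6 measured genes and a median of -0.02, with Uba7, an activating enzyme of the ubiquitin-like protein ISG15, at 0.33 (-0.06 by its second probe set) and the shuttle factor gene Ubqln1 at -0.18.

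The list around Nfe2l1, the factor that raises constitutive proteasome genes when degradation fails, had 8 measured genes and a median of 0.17. Of these, 2 were at least 1.5-fold higher (background 5.18%) and none lower (background 6.23%). A log2 ratio above 0 was found for 4 of 8. Nfe2l1 itself, added after its values were seen, gave 432 and 574 (log2 ratio 0.41). Nfe2l2, the oxidative stress factor NRF2, gave 2337 and 3718 (log2 ratio 0.67), and its partner Mafg gave 265 and 407 (log2 ratio 0.62, and 0.18 by its second probe set).

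**Figure D4:**
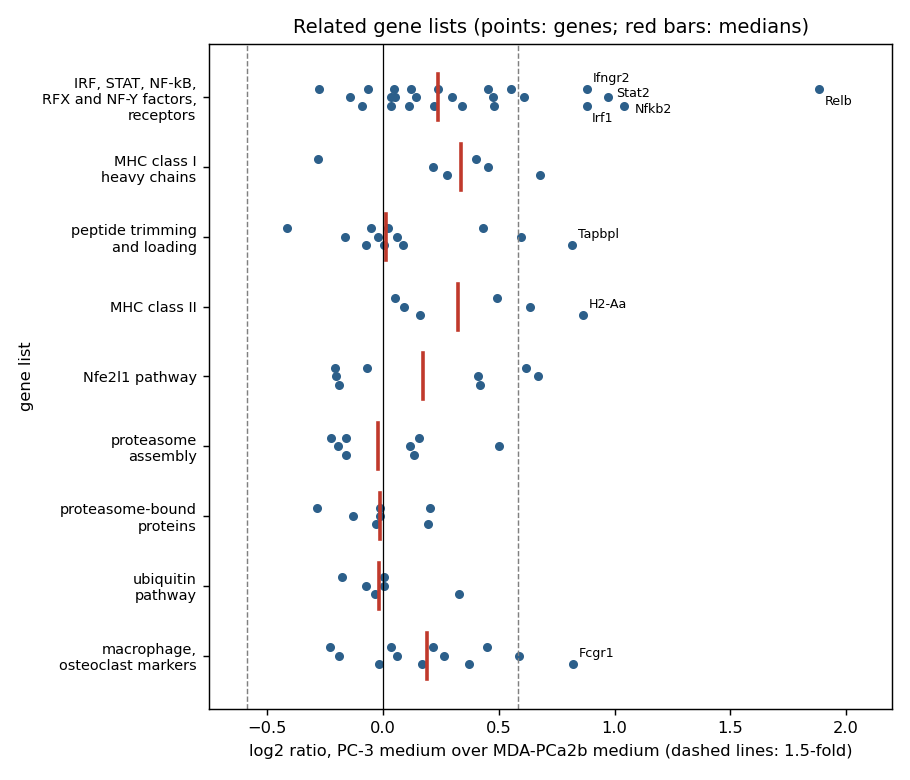
Log2 ratio of PC-3 medium over MDA-PCa2b medium for genes above the floor on both arrays in the lists related to the proteasome and in the macrophage and osteoclast markers; points are genes, red bars list medians and dashed lines 1.5-fold. The points of the factor and receptor list reach 1.88 at Relb, while the assembly, proteasome-bound and ubiquitin lists stay within the dashed lines.

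Immunoproteasome and MHC genes are also expressed by blood cells, so markers of other cells were read on the same arrays. Each of the 12 macrophage and osteoclast markers passed the floor in both media. Their median log2 ratio was 0.19, and 2 of 12 were at least 1.5-fold higher (background 5.18%), Fcgr1 (0.82) and Cd68 (0.59). The brightest of them, Lyz2 and Ctsk, had log2 ratios of 0.03 and -0.02. A log2 ratio above 0 was found for 9 of the 12 markers, beside 44.1% of all measured genes. The pan-leukocyte gene Ptprc (433 and 370) and the macrophage gene Csf1r (2713 and 2378) were among those lower with PC-3 medium. Of 9 lymphocyte and dendritic cell markers 8 were below the floor on both arrays, among them Cd3e, Cd79a and Itgax, and Cd8a was above it with MDA-PCa2b medium alone, at 72.3. All 5 endothelial markers were below the floor on both. Of 12 osteoblast markers, the 9 on the array with a symbol of their own all passed the floor in both media, with a median log2 ratio of -0.12. Among them Sp7 (-0.68) and Dmp1 (-2.05) were at least 1.5-fold lower (background 6.23%). The part of macrophage-lineage cells in the ratios of Psmb8, Psmb10 and Tap2 was not tested, and in RNA of a whole culture a change in cell numbers and a change in RNA per cell cannot be told apart.

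The promoter windows of the list were compared by motif with all 32851 windows of the table. An IRF element was found in 9 of 26 constitutive genes and 2 of the other 10 genes with a window, against 23.9% of all windows. An NF-kB element was found in 7 of 26 and 4 of 10, against 26.8%, and a GAS element in 1 of 26 and 1 of 10, against 8.30%. The antioxidant response element TGANTCAGC, to which Nfe2l1 and Nfe2l2 bind with Maf partners, was found in 1 constitutive gene, Psmb5, and in 0 of the other 10, against 1.19%. A CCAAT box was found in 10 of 26 and 5 of 10, against 37.4%, and the boxes of Psmb9 and Tap1 are the same DNA. A listed gene with several windows was counted if any of them matched, whereas the percentages are of single windows. The numbers of genes are small, and the windows of Tap2 and Nlrc5 were not used here.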

How the data were processed

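Probe set signals, intensity on a linear scale, were made by the authors; the submitters' processing notes name MAS5 and GCOS 1.4. Both arrays had a trimmed mean of 300.0 (2% left out at each end), which shows global scaling. The software's settings, such as its scaling target, are not given in the sources used here. Of 45101 probe sets 64 were controls, 34958 had 1 gene symbol and 932 several; none was named from the latter, and 0 columns were left out.

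Signals below the 50th percentile of an array (56.7 and 57.7) were set to that floor, log2 was taken, and the ratio was PC-3 medium minus MDA-PCa2b medium for the brightest probe set of a gene. A ratio with 1 signal at the floor is a bound. Counts of genes past 1.5-fold or 2-fold were set beside the share of all genes above the floor on both arrays. With 1 array per group there is no SD, p-value or replicate check, and the number of arrays limits the precision.

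The genes and lists were chosen with earlier results of these data known. Named genes were the inducible and presentation genes, their counterparts, the highest and lowest ratio of each constitutive group, and in each related list up to 4 genes at least 1.5-fold different or the 2 largest. Other probe sets are given where they differed by over 0.5 (log2) or in direction, and for some genes beyond this rule; remaining members were added to account for all. Scripts (Python 3.11.15, pandas 2.3.3) were tested on simulated data. Gene order and promoters come from RefSeq, GRCm38.p6, used for no other coordinates.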

Additional observations from a re-analysis of the deposited data

How the results depend on the processing

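Each choice was altered alone: the floor (25th or 75th percentile of an array, or none with 16 added to the signal before log2), the scaling (quantile normalisation, or a median ratio of 0), the probe sets (mean of all measured ones, or none with an _s, _x or _a suffix, which may match several transcripts) and the threshold (3-fold). The count of listed genes at least 2-fold higher, 1 as reported, was 2 with 16 added, with a median of 0 and with the 25th percentile as floor, and 0 at 3-fold and without the suffixed probe sets. The last setting leaves Psmb8 and Tap2 unmeasured; it gave 1 gene at least 1.5-fold higher, an inducible median of 0.41 and a difference from the constitutive median of 0.35. The floor at the 75th percentile leaves Psmb9 unmeasured and gave 0.99 and 0.93; there Tap2 had a bound of 0.30, Tap1 of 0.15 and Stat2 of 0.10. In the related lists, the counts at least 1.5-fold higher ranged from 0 to 3 for MHC class I chains, and reached lows of 0 for MHC class II, 1 for peptide loading and for the Nfe2l1 list, and 2 for factors and receptors, and a high of 2 for ubiquitin genes; the count lower was 1 for proteasome-bound proteins with 16 added. Of 39 named genes 32 kept the sign of their log2 ratio in every alternative that measured them; the exceptions were Ecpas, Psma5, Psmc3, Psmd13, Psme3, Psme4 and Uba7. Psme4 and Psmc3 changed sign with the median set to 0. No paired analysis was possible because each medium had 1 array, and no value here carries a spread between cultures.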
